A study of Mus musculus with 4 samples.

Results

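Metallothioneins and glutathione peroxidases were followed across the cell types of the mouse brain: the 8 genes Mt1, Mt2, Mt3, Gpx1, Gpx3, Gpx4, Gpx7 and Gpx8, found by symbol among the 32285 genes counted. The tissue was the hemisphere opposite to the injection in C57BL/6 mice aged 8 weeks (young) or 93 weeks (old) that had received 1000 CT2A-GFP-luc cells, a mouse glioblastoma line that carries GFP and luciferase (tumour), or saline (1xPBS, sham). It was taken 2 weeks after that injection, dissociated with an enzyme kit and counted with a droplet method that reads the 3′ end of transcripts and counts molecules by their UMIs. Young and old mice with sham or tumour make 4 groups of 1 library each. The number of mice behind a library is not given, and no difference between groups can be tested. All intervals are 95% intervals for counting error only.

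Metallothioneins are small proteins rich in cysteine that bind zinc and copper. Mt1 and Mt2 are induced by metals through the factor MTF1 and by glucocorticoids, and in the brain they are known mainly from astrocytes, while Mt3 is the form typical of nervous tissue. Glutathione peroxidases reduce peroxides with glutathione. Gpx1 is the cytosolic enzyme, Gpx3 the secreted form found in plasma, and Gpx4 the form that reduces peroxidised lipids in membranes and guards against ferroptosis. These are selenoproteins, whereas Gpx7 and Gpx8 are enzymes of the endoplasmic reticulum that carry cysteine in place of selenocysteine and are linked to oxidative protein folding.

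After filtering, 40390 cells remained, between 9529 and 10571 per library, with medians of 3773 to 4858 UMIs per cell. A cell was given a type when at least 3 of that type's 8 markers had a UMI and that number was at least 2 times the number for any other of 22 lists, and none of the 8 genes is a marker. This left 35479 cells with a type, 85.5% to 90.9% of each library, and 10 types had at least 50 cells in every library. The types are called "-like" because they rest on markers alone, and in each of them no marker of another type was among the 10 leading genes. Any 2 libraries shared between 19 and 38 cell barcodes. Cells with a list of 8 genes that includes Hmga2 reached 50 in the young tumour library alone (353 cells) and are given no type. Levels are in CPM, the UMIs of a gene per 1000000 UMIs of the type in that library. Levels were compared between types and libraries rather than between genes, and ratios of the UMIs of 2 genes were compared between types only. In any type fewer cells with a transcript and fewer transcripts per cell cannot be told apart from the summed level alone. A gene was called higher or lower in a type when its levels in 2 libraries differed by 1.5-fold or more, provided that the type held 100 or more of its UMIs in all and that it reached 20 CPM in 1 library.

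The 3 metallothionein genes lie in a row on chromosome 8, within 27721 bases from the start of Mt3 to the end of Mt1 (GRCm38, GENCODE M21). Mt3 spans chr8:94152607-94154146, Mt2 chr8:94172664-94173568 and Mt1 chr8:94179082-94180327, all on the plus strand. The 250 bases before each RefSeq start (GRCm38.p6) are printed because Mt1 and Mt2 had the most similar pattern of the 3 over cell types. Capitals mark the metal response element core, TGCACNC or TGCGCNC on either strand, to which MTF1 binds.
Mt1, chr8:94178839-94179088: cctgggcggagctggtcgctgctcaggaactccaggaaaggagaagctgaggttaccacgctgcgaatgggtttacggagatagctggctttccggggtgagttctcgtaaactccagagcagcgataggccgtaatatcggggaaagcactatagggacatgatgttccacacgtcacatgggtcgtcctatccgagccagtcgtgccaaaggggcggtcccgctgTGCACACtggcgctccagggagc
Mt2, chr8:94172368-94172617: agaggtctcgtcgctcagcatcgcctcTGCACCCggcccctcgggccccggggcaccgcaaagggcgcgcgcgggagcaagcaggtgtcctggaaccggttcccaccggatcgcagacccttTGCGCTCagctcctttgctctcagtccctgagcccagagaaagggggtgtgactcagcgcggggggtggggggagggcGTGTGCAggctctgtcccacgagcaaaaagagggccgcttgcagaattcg
Mt3, chr8:94152357-94152606: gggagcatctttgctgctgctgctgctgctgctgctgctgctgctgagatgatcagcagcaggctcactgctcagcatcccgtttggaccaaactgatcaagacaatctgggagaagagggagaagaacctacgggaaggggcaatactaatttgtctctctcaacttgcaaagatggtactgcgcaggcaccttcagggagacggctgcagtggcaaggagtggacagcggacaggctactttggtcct

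The Mt2 window held 3 of these cores, the Mt1 window 1 and the Mt3 window 0. Of 32817 RefSeq promoters of this length, 21.4% held at least 1 core and 1.26% at least 3. With the next 50 bases included, the numbers were 4 for Mt2, 3 for Mt1 and 1 for Mt3, against 1.97% of promoters with at least 3 and 25.7% with at least 1. Each window follows 1 RefSeq start and does not cover the bases next to other starts. GENCODE lists starts 123 and 153 bases past the end of the Mt1 window, 47 and 243 bases past that of Mt2 (both of its starts) and 140 bases past that of Mt3, so no count of cores is complete for its gene. Among the peroxidases only the Gpx7 window held a core (1), and windows of Gpx1, Gpx3, Gpx8 and all 4 starts of Gpx4 held 0. The antioxidant response element TGACNNNGC was present once in the Mt2 window and in none of the others, against 10.2% of all promoters.

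Over whole libraries, kept cells held 50805 to 63362 UMIs of Mt1, 25215 to 43616 of Mt3 and 42688 to 73772 of Gpx4, and Gpx3 had 78 to 330. The other members of the families, Mt4, Gpx2, Gpx5 and Gpx6, had at most 6 UMIs in any library over all barcodes and were not followed further.

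Mt1 was highest in astrocyte-like cells, which take up metals and glutamate around synapses and vessels, and in ependymal-like cells, the ciliated lining of the ventricles. In astrocyte-like cells its level was 4328 CPM in young sham and 4415 with tumour, and 3832 in old sham and 3786 with tumour. The ependymal-like values were 3388, 3501, 4832 and 4485 in the same order of libraries. The ranges of these types overlapped, so their order is not set by these libraries. Border-associated macrophage-like cells followed at 674 to 1243, then endothelial-like cells at 555 to 605 and oligodendrocyte-like cells at 354 to 449, and these 3 ranges did not overlap one another. Microglia-like cells held 187 to 256. Free RNA gives some UMIs of abundant genes in cells that do not make them, and T cell-like cells serve here as a measure of that background. That T cell-like cells make none of these genes was assumed and not tested. They held Mt1 at 33.6 to 117 CPM in the 3 libraries with at least 50 of them, at median depths of 3136 to 4119 UMIs. The share of cells with an Mt1 UMI was 39.8% to 56.1% in microglia-like cells and 9.57% to 24.9% in T cell-like cells, and with each cell thinned to 1000 UMIs it was 14.6% to 19.9% against 2.15% to 7.19%. In astrocyte-like cells the unthinned share was 95.1% to 96.5%.

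Mt2 had the same leading types. Its gene overlaps Gm45774 on the other strand, which had 14 to 27 UMIs per library. Its levels were 780, 827, 546 and 654 CPM in astrocyte-like cells (young sham, then tumour, old sham, then tumour) and 664 to 761 in ependymal-like cells. Endothelial-like cells came next at 126 to 147, clear of all remaining types, whose highest value was 90.5. In microglia-like cells Mt2 was at 9.22 to 14.9, within the 3.06 to 17 of T cell-like cells, and is read there as background. The T cell-like range joins libraries of 94 to 281 such cells and was not matched library by library, so this reading is uncertain. The number of Mt1 UMIs per Mt2 UMI differed between types. It was 4.03 to 4.47 in endothelial-like, 5.34 to 7.02 in astrocyte-like and 21.5 to 26.3 in oligodendrocyte-like cells, and these ranges of 4 libraries did not overlap. Oligodendrocyte-like Mt2, at 14.96 to 18.05 CPM, overlapped the T cell-like values, so the last ratio is not clear of background. The microglia-like ratio, 12.6 to 27.8, overlapped it.

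Mt3 had another distribution, with choroid plexus in the third place. This epithelium makes the cerebrospinal fluid. Ependymal-like cells held Mt3 at 2505, 2965, 3969 and 3207 CPM (young sham, then tumour, old sham, then tumour) and astrocyte-like cells at 1866, 2159, 2619 and 2090. The choroid plexus-like values were 866, 906, 1345 and 940. In each library the ependymal-like value was above the astrocyte-like one, although the ranges over libraries overlapped. Choroid plexus-like cells held 0.166 to 0.210 Mt1 UMIs per Mt3 UMI, whereas astrocyte-like cells held 1.46 to 2.32. Neuron-like cells reached 170 to 299, and the other 6 types stayed at or below 248. In microglia-like cells Mt3 was at 22.7 to 33.5, beside 27.5 to 35.1 in T cell-like cells, and is read as background there.

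**Figure D1:**
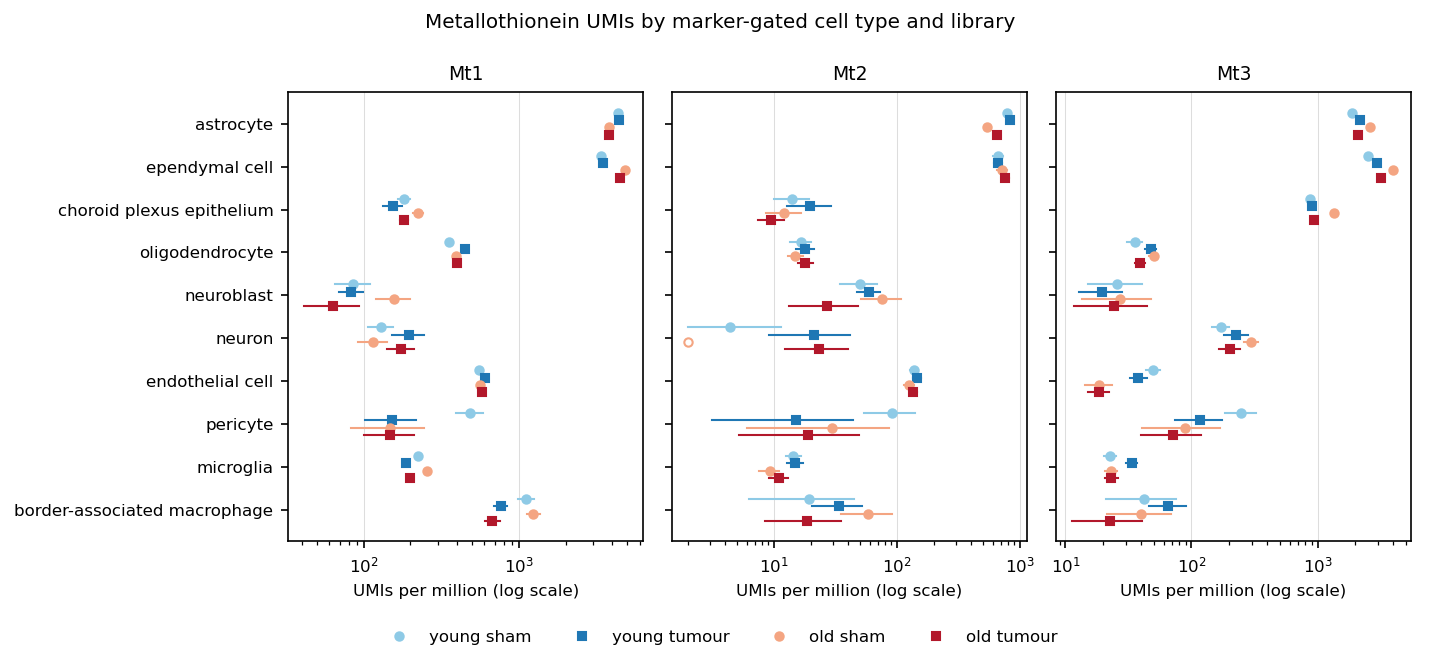
Levels of Mt1, Mt2 and Mt3 (CPM, log axis) in 10 marker-gated cell types, with 1 point per library and lines for the 95% counting interval; an open circle marks a count of 0 and lines are drawn to the left edge of the axis at most. Astrocyte-like and ependymal-like points lie farthest right in each panel, and choroid plexus-like points are high for Mt3 alone.

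Gpx1 was highest in myeloid cells. In microglia-like cells its level was 336 CPM in young sham and 381 with tumour, and 490 in old sham and 372 with tumour. Border-associated macrophage-like cells, which live around vessels and in the meninges, held 722, 476, 497 and 328. Endothelial-like cells, at 278 to 352, overlapped both. Values in types present in fewer libraries were higher: 1157 in the 142 monocyte-like cells of young tumour, and 923 and 948 in the neutrophil-like cells of young sham and old tumour. The lowest levels among the 10 types were in astrocyte-like cells (33.2 to 43.0) and oligodendrocyte-like cells (20.01 to 38.6), whose ranges overlapped.

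Gpx3 was low in most types and highest in border-associated macrophage-like cells. There it had 17 UMIs in young sham and 69 with tumour, and 71 in old sham and 69 with tumour, which are 65.3, 122, 219 and 141 CPM. Pericyte-like cells had 0 UMIs in every library, which allows up to 14.3 to 29.5 CPM (3 UMIs) at their depth. Neuron-like cells had 0 to 12 UMIs, of which 1 cell held 7 in young tumour. Ependymal-like cells held 5.92 to 7.55 CPM, and microglia-like, astrocyte-like, endothelial-like and oligodendrocyte-like cells stayed at or below 1.93 CPM. In choroid plexus-like cells Gpx3 had 3, 99, 15 and 22 UMIs in the same order. The value of 99 in young tumour rested on few cells: 45 UMIs were in 1 cell and 87.9% in 5 of the 165 cells, and 6.67% of the cells had any.

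Gpx4 differed between types and little between libraries in the 5 types with the most cells. Choroid plexus-like cells had the highest level in all 4 libraries, at 2321, 2311, 2480 and 2488 CPM (young sham, then tumour, old sham, then tumour). Oligodendrocyte-like cells, which make myelin, held 1152 to 1318 and ependymal-like cells 1085 to 1286, and these ranges overlapped. Endothelial-like cells held 729 to 819. The lowest mean of the 10 types was that of microglia-like cells, at 310 to 336. This range overlapped the 323 to 401 of neuroblast-like cells.

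Gpx7 was low everywhere. Its levels were 24.7 to 32.7 CPM in endothelial-like, 19.6 to 36.5 in neuroblast-like, 14.3 to 49.2 in pericyte-like and 17.8 to 26.1 in astrocyte-like cells, ranges that overlapped. In microglia-like, oligodendrocyte-like and border-associated macrophage-like cells it did not exceed 3.54.

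Gpx8 was a gene of few types. Pericyte-like cells, the contractile cells on capillaries, held 386, 348, 393 and 377 CPM (young sham, then tumour, old sham, then tumour). Choroid plexus-like cells held 156 to 204 and ependymal-like cells 75.5 to 129, and none of these 3 ranges overlapped another. The Hmga2-led cells of young tumour held 104, with a Gpx8 UMI in 89.5% of cells at a median depth of 25730 UMIs. Microglia-like, oligodendrocyte-like and border-associated macrophage-like cells were at or below 3.54. Between 42.0% and 63.7% of all Gpx8 UMIs lay in cells outside the marker gate. Of those, 27.3% to 47.5% were in cells with most markers of choroid plexus and 10.8% to 24.2% in cells with most markers of fibroblasts. Gpx8 lies on the minus strand at chr13:113042753-113046410 and overlaps Cdc20b on the other strand, which had 1 UMI in the kept cells of all 4 libraries together.

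**Figure D2:**
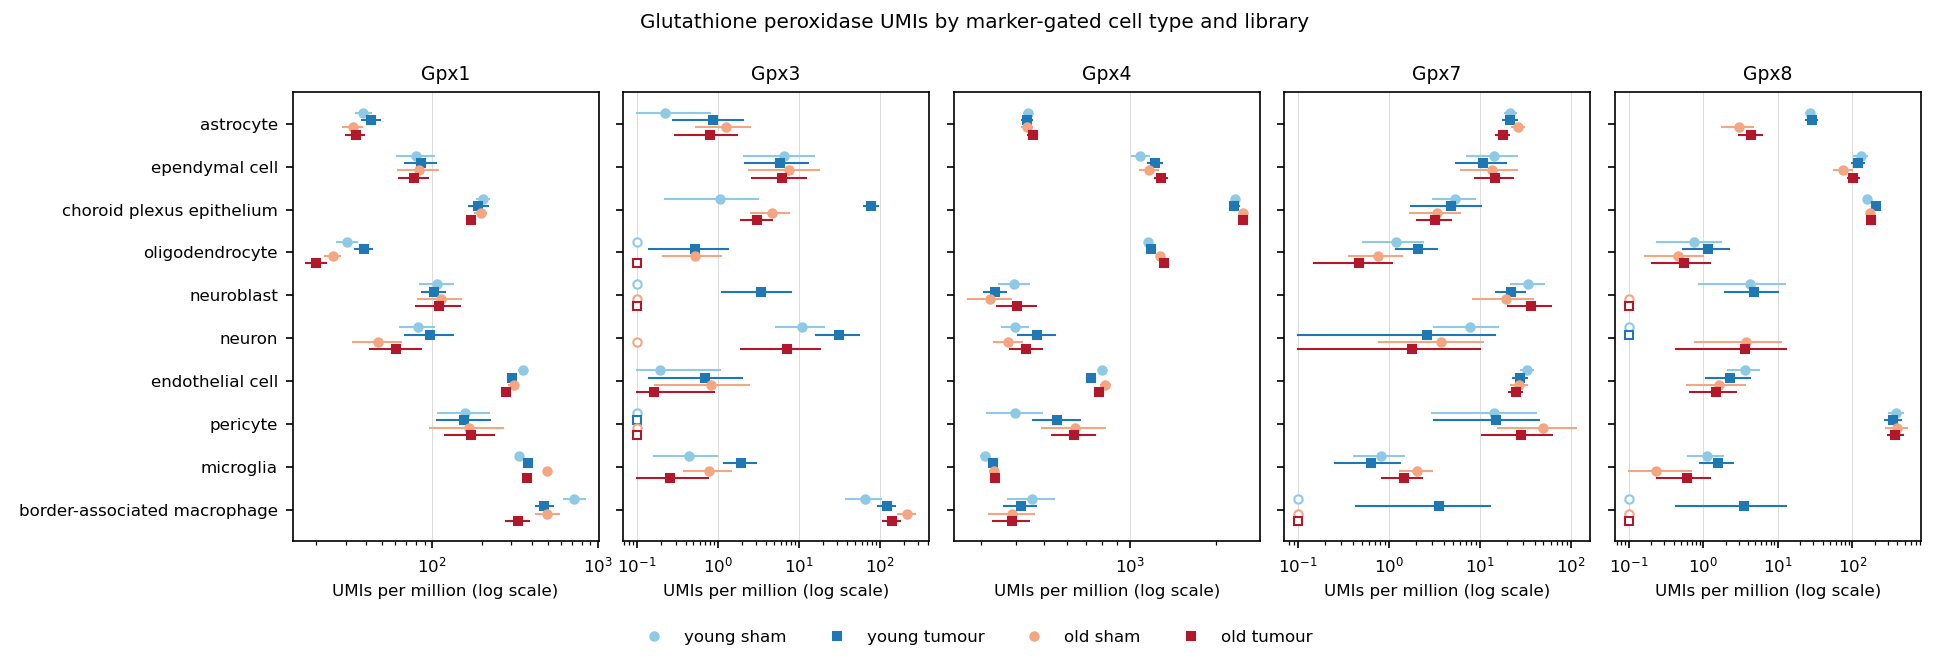
Levels of the 5 glutathione peroxidase genes (CPM, log axis, a separate axis for each gene) in 10 marker-gated cell types, with 1 point per library and lines for the 95% counting interval; open symbols mark a count of 0 and lines are drawn to the left edge of the axis at most. In the Gpx8 panel the 2 old astrocyte-like values (2.97 and 4.41) lie apart from the 2 young ones (26.9 and 28.4).

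Apart from Gpx3 in choroid plexus-like cells, Gpx8 in astrocyte-like cells had the ratio between ages farthest from 1 among members above the floor. These cells held 243 Gpx8 UMIs in 2442 cells of young sham and 163 in 1811 with tumour, and 19 in 1770 of old sham and 33 in 1924 with tumour. These are 26.9 CPM (23.6 to 30.5), 28.4 (24.2 to 33.1), 2.97 (1.79 to 4.64) and 4.41 (3.04 to 6.19). Both old values lay far below both young ones. The tumour to sham ratio was 1.06 in young mice and 1.48 (0.819 to 2.76) in old mice, the latter just short of the fold. The old to young ratio was 0.111 (0.0655 to 0.177) in sham and 0.155 (0.104 to 0.227) in tumour. Gpx8 passed the floor on levels in astrocyte-like cells through the young libraries only. At its old levels it could not have passed without a difference.

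The share of astrocyte-like cells with a Gpx8 UMI was 8.72% in young sham and 8.28% with tumour, and 0.960% in old sham and 1.25% with tumour. With cells thinned to 1000 UMIs the shares were 2.27%, 2.49%, 0.242% and 0.590%, after leaving out 110, 162, 114 and 61 shallower cells. Both measures had the young libraries above the old ones. In T cell-like cells at most 0.671% had a Gpx8 UMI. Among astrocyte-like cells with a UMI of Gfap, a filament gene of reactive and white matter astrocytes, Gpx8 was at 33.1, 40.1, 8.86 and 9.11 CPM (young sham, then tumour, old sham, then tumour). Among those without one it was at 25.95, 26.4, 2.005 and 3.41, so the difference between ages was present in both. The summed level of the 8 astrocyte markers was 13270 to 14400 in the 4 libraries, with none of them at 0.

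**Figure D3:**
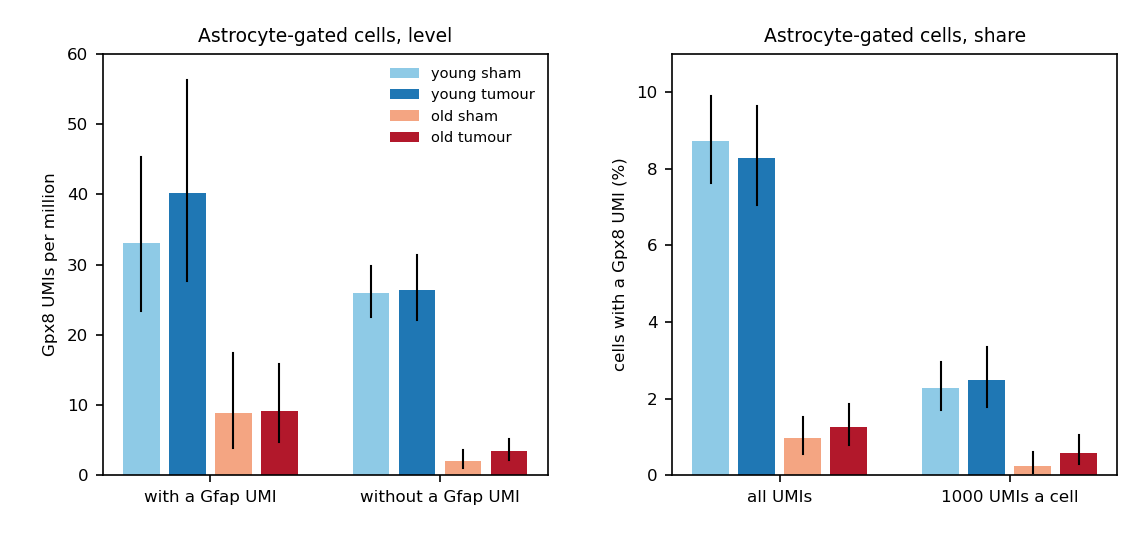
Gpx8 in astrocyte-like cells of the 4 libraries: the left panel shows the level (CPM) in cells with and without a Gfap UMI, the right panel the percentage of cells with a Gpx8 UMI from all UMIs and after thinning to 1000 UMIs a cell. Bars are single libraries and lines the 95% counting interval; in all 4 settings both old bars are below both young bars.

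Ependymal-like, choroid plexus-like and pericyte-like cells, which had higher Gpx8 levels, did not share this size of difference. In ependymal-like cells the levels were 129, 121, 75.5 and 103 CPM (young sham, then tumour, old sham, then tumour), with old to young ratios of 0.587 (0.409 to 0.833) in sham and 0.852 (0.661 to 1.10) in tumour. In choroid plexus-like cells the ratios were 1.11 (0.975 to 1.26) and 0.867 (0.758 to 0.995). Pericyte-like values ranged only from 348 to 393. Oligodendrocyte precursor-like cells reached 50 cells in the sham libraries alone, with 9 Gpx8 UMIs in 85 young cells (21.6 CPM) and 9 in 315 old cells (5.40). Microglia-like and endothelial-like cells held only 3 to 19 Gpx8 UMIs per library. Their old to young ratios were also below 1. In microglia-like cells they were 0.212 (0.0393 to 0.749) in sham and 0.384 (0.135 to 0.974) in tumour. The endothelial-like ratios were 0.455 (0.149 to 1.19) and 0.637 (0.229 to 1.74). The difference between types in the age ratio was not tested.

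Of the 7 members measured in astrocyte-like cells, Gpx8 alone passed the fold between ages. That is 1 of 7 in sham, where 3.15% of 7116 genes passed it in either direction, and 1 of 7 in tumour, where 1.85% did. Since Gpx8 passed the floor through the young libraries only, these counts do not measure an excess among the members. In the tumour to sham comparisons 0 of 7 members passed at either age, beside 0.998% of genes in young and 1.53% in old mice. Mt2 was at 0.700 (0.672 to 0.729) of its young level in old sham and at 0.792 (0.761 to 0.824) in old tumour, both short of the fold. For Mt1 these ratios were 0.885 and 0.857, and for Gpx4 0.990 and 1.05. Mt1, Mt2, Gpx1 and Gpx8 each had both old astrocyte-like values below both young ones. The share of all genes with this order was not counted, so it is not shown to be particular to the members.

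**Figure D4:**
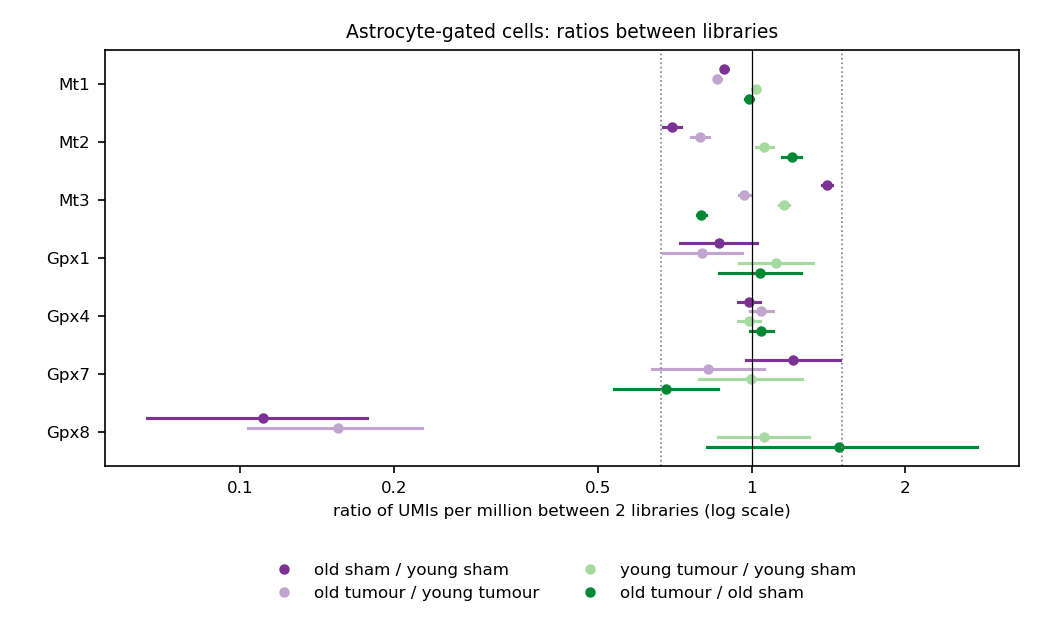
Ratios of levels between 2 libraries in astrocyte-like cells (log axis) for the 7 members above the floor, with points for the ratio and lines for the 95% counting interval. Dotted lines mark a ratio of 1.5 in either direction, and only the 2 Gpx8 age ratios (0.111 and 0.155) lie outside them. Gpx8 passed the floor through the young libraries only.

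Mt3 was highest in old sham in 6 of the 10 types, of which neuroblast-like cells were at the background level (19.4 to 26.9 CPM). In astrocyte-like cells old sham had 1.40 (1.37 to 1.43) times the young sham level, and old tumour 0.968 times the young tumour level. The old to young ratio in sham passed the fold in ependymal-like cells at 1.59 (1.49 to 1.68), in choroid plexus-like cells at 1.55 (1.48 to 1.63) and in neuron-like cells at 1.75 (1.43 to 2.16). In tumour the ependymal-like, choroid plexus-like and neuron-like ratios were 1.08, 1.04 and 0.886. No share of all genes past the fold is given for ependymal-like and neuron-like cells, so how unusual these calls are is not shown. The tumour to sham ratio of Mt3 in old mice divided by that in young mice was 0.690 (0.668 to 0.712) in astrocyte-like, 0.683 in ependymal-like, 0.668 in choroid plexus-like, 0.580 in oligodendrocyte-like and 0.506 in neuron-like cells. It was also below 1 in microglia-like cells (0.682), where Mt3 was read as background, and in border-associated macrophage-like cells (0.363, 0.127 to 1.03). It was above 1 in endothelial-like (1.31, 0.911 to 1.87), pericyte-like (1.73, 0.660 to 4.51) and neuroblast-like cells (1.196, 0.422 to 3.39), with intervals that included 1. All of these values use the same 4 libraries. The young tumour to sham ratios were 1.16 in astrocyte-like, 1.18 in ependymal-like, 1.05 in choroid plexus-like, 1.35 in oligodendrocyte-like, 1.33 in neuron-like and 1.48 in microglia-like cells. The old ratios were 0.798, 0.808, 0.699, 0.781, 0.672 and 1.01 in the same order of types. The part of any 1 library in the result, old sham included, was not tested. Immediate early and dissociation genes were higher in old than in young sham for 7 of 9 measured in ependymal-like, 3 of 4 in choroid plexus-like, 2 of 7 in neuron-like and 0 of 6 in astrocyte-like cells, and their part was not tested either.

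In choroid plexus-like cells 2 of 6 members passed the fold between old and young sham (Mt3 and Gpx3), beside 17.2% of 4796 genes. All genes there were shifted by a median of 0.20 on the log2 scale in that comparison, and Mt3 at 0.63 was 0.44 above this shift, which is short of the fold. In the other comparisons Gpx3 was the 1 of 6 that passed: old against young tumour (9.74% of genes), young tumour against sham (15.7%) and old tumour against sham (13.1%). Gpx3 passed the floor in this type through young tumour alone, at 78.4 CPM beside 1.08 to 4.65 in the other libraries, so the calls against young tumour were fixed by the floor. Both old values lay below 20 CPM. The ratios of 0.0392, 72.8 and 0.662 rest on the few cells described above, and without the richest cell the young tumour level was 42.9 in place of 78.4. Under a stricter gate the log2 ratio of Gpx3 turned to -1.13 for old against young sham and to 0.59 for old tumour against sham.

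Endothelial-like cells form the blood-brain barrier. Of 6 members measured there, Mt3 alone passed the fold between ages, in sham (beside 6.63% of 6966 genes) and in tumour (4.19%). Its levels were 49.5, 37.9, 18.4 and 18.3 CPM (young sham, then tumour, old sham, then tumour). The summed level of the 8 astrocyte markers in these same cells moved with it, at 419, 210, 137 and 118, with none of the 8 at 0, and its part in the result was not tested. The old values were below the 27.5 to 35.1 of T cell-like cells. They were also below 20 CPM, so Mt3 passed the floor here through the young libraries only and had to differ. Between tumour and sham 0 of 6 passed at either age, beside 2.05% and 2.33% of genes. The ratios of Mt1 and Mt2 lay between 0.915 and 1.09 in all 4 comparisons of endothelial-like cells.

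In oligodendrocyte-like cells Gpx1 was at 30.7, 38.6, 25.1 and 20.01 CPM (young sham, then tumour, old sham, then tumour). The old to young ratio was 0.519 (0.433 to 0.621) in tumour and 0.816 (0.684 to 0.976) in sham, so 1 of 4 members passed in tumour, beside 5.14% of 6131 genes, and 0 of 4 in sham, beside 6.36%. In tumour against sham 0 of 4 passed at both ages, beside 0.913% of genes in young and 1.14% in old mice. Gpx4 was 1.11 times its young level in both old libraries.

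In microglia-like cells 0 of 4 members passed in any comparison. The shares of 6272 genes that passed were 8.35% and 3.33% between ages in sham and tumour, and 3.84% and 5.21% between tumour and sham in young and old. Mt3, read as background in this type, came closest, at 1.477 (1.265 to 1.725) times the sham level in young tumour. Gpx1 was at 1.46 (1.40 to 1.52) times the young level in old sham. Against this, Gpx1 in old tumour had 0.977 times the young tumour level. Mt1 was lower in tumour than in sham at both ages, at 0.840 (0.794 to 0.889) and 0.782 (0.741 to 0.825). Markers of border-associated macrophages in the same cells summed to 18.1, 183, 16.5 and 23.5 CPM (young sham, then tumour, old sham, then tumour). The part of these markers in the microglia-like ratios was not tested. Immediate early and dissociation genes, which respond to handling of the tissue, were lower in tumour than in sham for 14 of 14 measured in young and 11 of 14 in old microglia-like cells. The same count was 6 and 14 of 14 in endothelial-like cells and 10 and 12 of 13 in oligodendrocyte-like cells. In astrocyte-like cells 6 of the 14 were measured, of which 1 passed the fold upward in young mice and 1 downward in old mice. Between ages, genes of this list were higher in old mice in several types: in sham and tumour, 14 and 8 of 14 in endothelial-like cells, 11 and 10 of 13 in oligodendrocyte-like cells, 4 and 5 of 14 in microglia-like cells and 0 of 6 in astrocyte-like cells. Those lower were 1 of 13 in oligodendrocyte-like and 2 of 14 in microglia-like cells, both in sham. Fos was at 1573 CPM in endothelial-like cells of old sham and at 48.7 to 145 in the other libraries. Their part in the results for the members was not tested.

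Border-associated macrophage-like cells were few (68 to 134 per library). Their Gpx1 was lower in tumour than in sham at both ages, at 0.660 (0.545 to 0.799) in young and 0.660 (0.527 to 0.827) in old. Mt1 was at 0.542 (0.467 to 0.629) of the sham level in old tumour and at 0.688 in young tumour. Gpx3 was 1.87 (1.09 to 3.39) times the sham level in young tumour and 0.646 (0.457 to 0.912) in old tumour. Markers of dendritic cells differed in the same cells, with summed levels of 138, 61.9, 666 and 883 CPM (young sham, then tumour, old sham, then tumour). Of the 8 markers 5, 4, 5 and 5 were at 0 in that order, so the sums rest on few genes. The part of these markers in the results was not tested. Pericyte-like Mt1 in young sham (486 CPM) rested on 1 cell that held 57 of its 102 UMIs, and without it the level was 220, beside 148 to 151 in the other libraries. Neutrophil markers summed to 9786 CPM in pericyte-like cells of young sham and to at most 33.4 in the others, and their part in that value was not tested. Under a stricter gate the log2 ratio of pericyte-like Mt1 between old and young sham was 0.10. No share of all genes past the fold is given for border-associated macrophage-like and pericyte-like cells, so how unusual these ratios are is not shown.

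Neuroblast-like and neuron-like cells were also few. In neuroblast-like cells Mt2, at 49.8, 58.8, 75.8 and 26.8 CPM (young sham, then tumour, old sham, then tumour), and Mt1, at 85.4, 83.1, 157 and 63.3, were both highest in old sham and lowest in old tumour. Without doublet removal Mt2 was higher in old than in young tumour, at 0.39 on the log2 scale. In neuron-like cells Gpx1 was lower in old than in young mice, at ratios of 0.577 in sham and 0.625 in tumour. Neuron-like Mt1 was 1.51 and 1.52 times the sham level in young and old tumour. These ratios turned to -0.38 on the log2 scale under a stricter gate (young) and to -1.40 without doublet removal (old). For neuroblast-like and neuron-like cells, too, no share of all genes past the fold is given.

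Related genes of the same pathways were counted by list, and those named moved past the fold the same way at both contrasts of age or of tumour. In astrocyte-like cells no gene of the 9 measured lists did so. The glutathione synthesis list had 0 of 6 measured genes past the fold in each of the 4 comparisons, the thioredoxin and peroxiredoxin list 0 of 10, the superoxide dismutase and catalase list 0 of 4, the NRF2 list 0 of 5 and the zinc and copper list, which holds Mtf1, 0 of 13. Glucocorticoid-induced genes had 0 of 7, with median log2 ratios of 0.23 and -0.33 between ages in sham and tumour, beside 0.03 and -0.01 over all genes. Single genes passed elsewhere: the glutathione transferase Gstp1 at 1.64 in old sham and 1.68 in young tumour, both against young sham, the selenoprotein gene Selenoh at 0.551 in old against young tumour, Fos at 1.56 in young tumour against sham and Jun at 0.598 in old tumour against sham. These 4 were named after their values were seen.

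In oligodendrocyte-like cells some genes of these pathways differed between ages in both sham and tumour. Gstm1, a glutathione transferase, was at 109, 82.1, 280 and 271 CPM (young sham, then tumour, old sham, then tumour), with old to young ratios of 2.58 (2.38 to 2.80) in sham and 3.30 (3.02 to 3.599) in tumour. Gsto1, of the omega class of the same enzymes, went the other way, at 0.402 (0.322 to 0.502) and 0.431 (0.346 to 0.536). Txnip, which inhibits thioredoxin, was at 2.07 (1.71 to 2.52) and 2.65 (2.18 to 3.23). In endothelial-like cells Mgst1, a membrane-bound glutathione transferase, was 2.05 and 1.70 times the young level, and Cp, the copper oxidase ceruloplasmin, 1.63 and 1.88 times.

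Genes with a pattern like that of each member were ranked over 53 pairs of cell type and library by the correlation of log2(CPM + 10), among 14021 genes without gate markers. Libraries and depth are shared between these points, so the values are descriptions. The gene most like Mt1 was Mt2 (r = 0.866), and the reverse held, while Mt3 was less like Mt1 (r = 0.624). After each other, Mt1 was followed by Pld2 and Retsat and Mt2 by Nat8f4 and Frem2. Mt3 was most like Clu (r = 0.952), which encodes the chaperone clusterin, and Wwc1 was also among its leading genes. For Gpx1 the leading genes were Arpc2, Birc3 and Mcl1, and for Gpx3 Igf1, Pla2g2d and Cd209f. Gpx4 was most like Slc4a2 (r = 0.914), an anion exchanger, then Mcee and Pcolce2. Gpx7 had Nynrin, Klf12 and Fbxl7, and Gpx8 had Angptl2 (r = 0.918), 2310030G06Rik and Fads3. Across single astrocyte-like cells of 1 library, log values of Mt1 and Mt2 correlated at 0.398 to 0.444 and those of Mt1 and Mt3 at 0.530 to 0.585, over 1770 to 2442 cells that share their depth.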

How the data were processed

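The deposited files hold UMI counts per gene and barcode for 4 libraries, not normalized. Per the submitters' processing notes, reads were aligned to mm10 with Cell Ranger 3.0.2 and analysed in Seurat 2.3.4, while the file headers name Cell Ranger 6.1.0. The strain field differs between samples and was not used. Barcodes with at least 500 UMIs, 200 genes and at most 20% mitochondrial UMIs were kept (44503 of 46097), and the 4113 highest Scrublet scores (scanpy 1.11.5, 0.8% per 1000 barcodes) were removed. Thresholds of the marker gate were set after the cell numbers were seen. Levels carry exact Poisson, ratios exact conditional and shares Clopper-Pearson 95% intervals, and no test was made, since a group is 1 library. Members and lists were chosen with earlier results of these data known. All members were named, with the 3 genes most like each and list genes past 1.5-fold the same way in both contrasts, at most 5 per list and type. One such result is not reported here. Of the gene identifiers, 32158 of 32285 (99.6%) were in GENCODE M21. On simulated astrocyte-like counts of old against young sham (7116 genes), 50 of 50 genes were called at each of 4 fold sizes (0.25, 0.5, 2 and 4) and 1 of 6916 unchanged genes. The simulation held counting error only, without variation between libraries or mice. It therefore gives no rate of false calls between groups. Protein sequences were not analysed here.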

Additional observations from a re-analysis of the deposited data

Results flagged for a closer look

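Of the members above the floor, 4 pairs of ratios went in opposite directions past the fold, and in no case was the difference between the pair tested. The share of all genes with such a pair was not counted, so this number has no measure beside it. In neuroblast-like cells the log2 ratio of Mt2 between old and young mice was 0.61 in sham and -1.14 in tumour. The value in tumour turned to 0.39 without doublet removal, 0.034 as the mean of cell levels and 0.51 after thinning. In border-associated macrophage-like cells the log2 ratio of Gpx3 between tumour and sham was 0.90 in young and -0.63 in old mice. In choroid plexus-like cells the same ratio of Gpx3 was 6.19 in young and -0.60 in old mice, and its log2 ratio between old and young mice was 2.11 in sham and -4.67 in tumour. Both pairs in choroid plexus-like cells use the young tumour library, where 1 cell held 45 of the 99 Gpx3 UMIs.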

How the results depend on the processing

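Values are log2 ratios, and counts are members past the fold. Gpx8 in old against young sham astrocyte-like cells was -3.17, and -3.69 to -2.91 under all alternatives. In tumour it was -2.69, with -3.97 under a stricter gate, -3.36 as the mean of cell levels, -2.07 after thinning to 1000 UMIs and -3.14 to -2.18 under the others. Other counts of members moved. In astrocyte-like cells, old against young sham had 2 after thinning (1 as reported), old against young tumour 2 without doublet removal (1), young tumour against sham 1 without doublet removal (0), and old tumour against sham 2 without doublet removal and 1 with median-centring, thinning, totals without mitochondrial and ribosomal protein genes, or cells without a Gfap UMI (0). Gpx8 crossed in this last comparison, joined by Gpx7 without doublet removal. Gpx8 was 0.57 as reported and 0.81, 0.63, 1.29, 0.62 and 0.76 in that order of settings, but -0.21 under the stricter gate. In oligodendrocyte-like cells thinning gave 1, 1 and 2 in place of 0 for old against young sham and for tumour against sham in young and old mice, and no doublet removal gave 1 in young tumour against sham. In microglia-like cells, 0 became 1 for old against young sham (median-centring, thinning, totals as above) and for young tumour against sham (1000 UMIs and 10% mitochondrial UMIs, median-centring, totals as above). In choroid plexus-like cells, old against young sham had 1 (stricter gate, median-centring, mean of cell levels) in place of 2. There, old against young tumour had 2 (no doublet removal, the stricter cell filter, totals as above) or 0 (stricter gate) in place of 1, young tumour against sham 2 (stricter cell filter, thinning) or 0 (stricter gate), and old tumour against sham 0 (stricter cell filter, median-centring, mean of cell levels, totals as above).

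Some ratios in small types changed sign. Under the stricter gate pericyte-like Mt1 was 0.10 in old sham and 0.055 in young tumour, each against young sham. Gpx3 in choroid plexus-like cells was -1.13 (stricter gate) and -0.65 (thinning) for old against young sham, and 0.59 (stricter gate) and 0.39 (mean of cell levels) for old tumour against sham. Without doublet removal, as the mean of cell levels and after thinning, neuroblast-like Mt2 was 0.39, 0.034 and 0.51 for old against young tumour and 0.10, 0.17 and 0.33 for old tumour against sham. Neuron-like Mt1 was -0.38 for young tumour against sham (stricter gate) and -1.40 for old tumour against sham (no doublet removal). The cause of these changes was not tested. Cells without a Gfap UMI, and leaving out the richest cell of each library, were chosen after seeing the data. No paired analysis was possible because each group is 1 library.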
